A study of Homo sapiens with 9 samples.

Results

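The 9 genes described here are the activin subunits INHBA and INHBB, the follistatin family genes FST, FSTL1 and FSTL3, the bone morphogenetic protein genes BMP2 and BMP4, the feedback inhibitor SMAD7 and TGFB1. They were taken by gene name from a table of 32997 genes, and all 9 were found. RNA was sequenced from ES-2 cells, an established human ovarian cancer line, in 3 groups of 3 libraries. The first group overexpressed OTUB2, a deubiquitinating enzyme, the second overexpressed SNX29P2, a gene named as a sorting nexin pseudogene, and the third carried an empty vector. All 3 groups were grown in RPMI-1640 with fetal bovine serum and received no other treatment. The labels do not say whether a group was a clone or a pool, or whether a separate culture stood behind each library. The p-values thus reflect the spread among 3 libraries a group, and part of it may be technical. Each library name ends in a number from 1 to 3, and the labels do not say what that number stands for.

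Activins are dimers of inhibin beta chains that signal, like TGF-beta, through type II and type I receptor kinases to SMAD2 and SMAD3, while BMPs signal through related receptors to SMAD1, SMAD5 and SMAD9. Follistatin and the follistatin-like protein FSTL3 bind activins outside the cell and keep them from their receptors, and SMAD7 is induced by these pathways and blocks the receptors from within. The inhibin beta A chain and follistatin were first studied in the ovary, where granulosa cells make both and activin regulates the pituitary hormone FSH.

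The libraries held 38504854 to 48551215 reads in genes, and replicates of a group correlated at r = 0.971 to 0.981 over the tested genes. OTUB2 was at 37.6 to 42.6 RPKM (reads per kilobase of gene per 1000000 reads) in its own libraries and at no more than 1.58 RPKM elsewhere, and SNX29P2 was at 41.0 to 55.1 RPKM in its own libraries and at no more than 0.0665 RPKM elsewhere. Of the 5 epithelial markers in the table, KRT8, KRT18 and KRT7 were tested and expressed, and KRT19 and EPCAM stayed below 0.5 RPKM in every library. NAPSA and PAX8, markers of ovarian and clear cell tumours, also stayed below 0.5 RPKM, so the labelled origin was not visible in them, whereas WT1 passed the filter. OTUB2 replicate 1 stood apart from the other libraries in blood cell markers. HBB was at 186 RPKM and HBA1 at 65.9 RPKM there, and the 2 summed to 0 to 252 RPKM over the OTUB2 libraries, 0 RPKM in every SNX29P2 library and 0 to 0.352 RPKM over the vector libraries. The leukocyte markers LYZ, PTPRC and CD3E summed to 0.0852 to 4.84 RPKM over the OTUB2 libraries, highest in replicate 1 with LYZ at 4.22 RPKM, against 0.0495 to 0.197 RPKM in SNX29P2 libraries and 0.0294 to 0.213 RPKM in vector libraries. Fold changes of OTUB2 against vector and against SNX29P2 in the main tests are therefore given with and without that library.

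The deposited table places INHBA at chr7:41667168-41705834 (minus strand), INHBB at chr2:120346143-120351808 (plus) and TGFB1 at chr19:41301587-41353911 (minus) of GRCh38. The follistatin family genes are FST at chr5:53480409-53487134 (plus), FSTL1 at chr3:120392293-120451253 (minus) and FSTL3 at chr19:676365-683399 (plus). BMP2 lies at chr20:6767664-6780280 (plus), BMP4 at chr14:53949736-53958761 (minus) and SMAD7 at chr18:48919853-48950711 (minus). All 9 are protein-coding genes in GENCODE release 29.

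Promoter sequence is shown for INHBA and FSTL3, the members that differed most clearly with the library number. The letters are the 250 bases before the RefSeq start of each gene in GRCh38.p14, on the gene's strand, at chr7:41703091-41703340 (minus strand) for INHBA and at chr19:676142-676391 (plus strand) for FSTL3. Capitals mark TATAAA or its reverse complement TTTATA in both, and GGCGCC in FSTL3.
INHBA: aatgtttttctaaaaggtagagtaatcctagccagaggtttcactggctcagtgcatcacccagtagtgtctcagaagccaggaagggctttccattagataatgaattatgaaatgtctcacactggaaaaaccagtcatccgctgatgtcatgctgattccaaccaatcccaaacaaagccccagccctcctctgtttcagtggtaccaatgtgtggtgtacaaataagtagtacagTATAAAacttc
FSTL3: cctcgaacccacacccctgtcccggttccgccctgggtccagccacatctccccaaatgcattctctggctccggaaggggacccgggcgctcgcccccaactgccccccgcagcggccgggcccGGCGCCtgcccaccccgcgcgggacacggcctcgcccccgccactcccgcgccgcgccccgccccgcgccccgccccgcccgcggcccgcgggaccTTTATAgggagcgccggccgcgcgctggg
The INHBA window held 42.8% G and C and the FSTL3 window 80.0%, against a median of 58% over 35116 RefSeq promoters. The letters searched, on both strands and with none contained in another, were GTCTAGAC and GGCGCC (known SMAD motifs), TGACTCA (AP-1), TGACGTCA (the cAMP response element) and TATAAA (the TATA box). TATAAA lay 11 bases before the start in INHBA and is found in 10.7% of the promoters. FSTL3 held GGCGCC 125 bases before its start, as do 16.4% of promoters somewhere in the window, and TATAAA on the opposite strand at 29 bases. GTCTAGAC (0.182% of promoters), TGACTCA (4.20%) and TGACGTCA (1.65%) were in neither window. RefSeq held promoters for 8 of the 9 members, in 12 windows. GGCGCC was also in windows of INHBB, FSTL1 and BMP4, and TATAAA in a window of SMAD7, 35 bases before that start.

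Per gene length, follistatin was the most abundant of the 9 transcripts. Its mean was 1.24 times that of TGFB1. The place of TGFB1 is less certain, because its exons overlap those of HNRNPUL1 on the opposite strand, as described below. FST averaged 37.4 RPKM over the 9 libraries, above 95.9% of all genes in the table, and was followed by TGFB1 at 30.2 RPKM, INHBA at 23.2 RPKM, FSTL1 at 12.1 RPKM and FSTL3 at 8.65 RPKM. The BMP ligands and SMAD7 were lower, with BMP2 at 3.57 RPKM, SMAD7 at 2.65 RPKM and BMP4 at 0.817 RPKM. INHBA, FSTL3, SMAD7 and BMP4 were each above the next member in 9 of 9 libraries. Neighbours that changed places were FST and TGFB1 (vector replicate 1), TGFB1 and INHBA (SNX29P2 replicate 2), FSTL1 and FSTL3 (vector replicate 2), each in 1 library, and BMP2 and SMAD7, where BMP2 was higher in 6 of 9 libraries. The spread over the 9 libraries was smallest for TGFB1, with a coefficient of variation of 7.17%, and largest among the tested members for FSTL3 at 35.9% and SMAD7 at 33.1%.

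**Figure D1:**
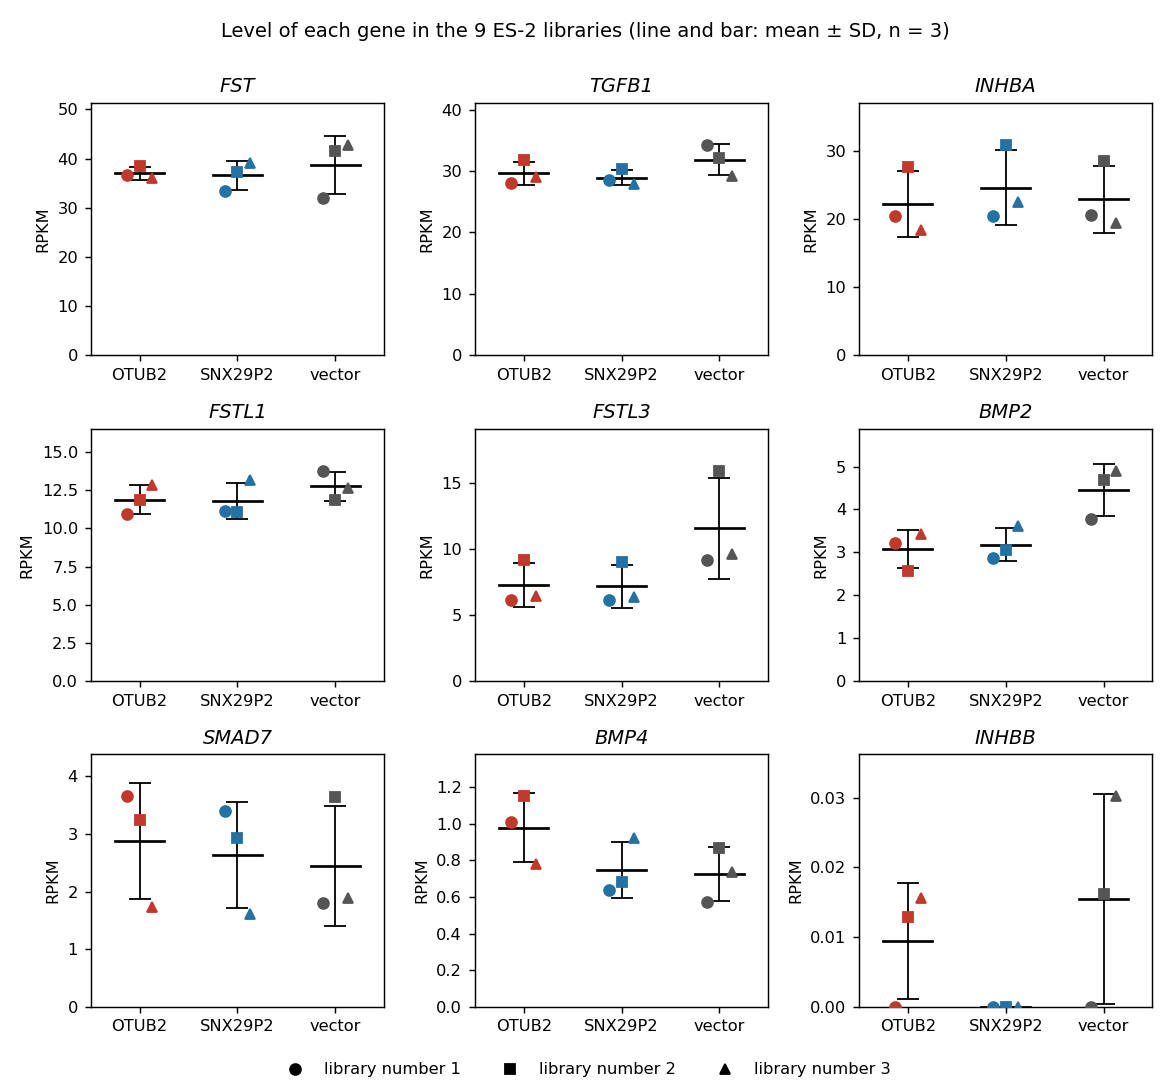
Level of each of the 9 genes in RPKM (y axis, from 0) in OTUB2, SNX29P2 and vector libraries. Points are libraries, with shapes for the number in the library name, and lines with bars are the mean ± SD of 3 libraries. BMP2 lay lower in all 6 overexpression libraries than in the 3 vector libraries, and INHBA and FSTL3 were highest in the library numbered 2 of each group.

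INHBB, the other activin beta chain, was close to absent. It had 0, 0.0129 and 0.0156 RPKM in OTUB2 libraries, 0 RPKM in each SNX29P2 library, and 0, 0.0162 and 0.0302 RPKM in vector libraries. These values rest on 4 reads over the OTUB2 libraries, 0 reads over the SNX29P2 libraries, which allows up to 0.00704 RPKM (3 reads over the group), and 6 reads over the vector libraries. The exact Poisson 95% intervals of the pooled levels were 0.0026 to 0.0244 RPKM in OTUB2 and 0.0056 to 0.0333 RPKM in vector cells, covering counting error only. INHBB did not pass the filter of 0.5 RPKM in 3 libraries, so 8 of the 9 members were tested and a difference in INHBB was not detectable at this depth. INHA, the inhibin alpha chain that pairs with a beta chain to form inhibin, was also under the filter, at no more than 0.282 RPKM in any library.

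The tests compared OTUB2 with vector, SNX29P2 with vector, OTUB2 with SNX29P2, and the 6 overexpression libraries with vector, and the first, second and last of these share the 3 vector libraries. They used limma over 16533 genes on log2(RPKM + 0.1), a scale that understates the change of low genes, and calls required an adjusted p below 0.05 by the method of Benjamini and Hochberg. Of the 8 tested members, 0 were called in each comparison, where 0.0181% of all genes were called for OTUB2 against vector, 0.0363% for SNX29P2 against vector, 0.0242% for OTUB2 against SNX29P2 and 0.0605% for both overexpression groups against vector. At an unadjusted p under 0.05 there were 2 members in OTUB2 against vector (6.73% of all genes), 2 in SNX29P2 against vector (8.21%), 0 in OTUB2 against SNX29P2 (2.43%) and 2 in both overexpression groups against vector (9.11%). Each time these 2 were BMP2 and FSTL3, and both were lower than in vector cells. The voom variant of limma on recovered reads gave 0 called members and 2, 2, 0 and 2 members at an unadjusted p under 0.05.

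BMP2 encodes a ligand of the BMP branch. It had 3.23, 2.57 and 3.43 RPKM in OTUB2 libraries, 2.87, 3.05 and 3.61 RPKM in SNX29P2 libraries, and 3.77, 4.69 and 4.90 RPKM in vector libraries. All 6 overexpression libraries lay below the lowest vector library, and the 2 overexpression groups overlapped. Such separation below the vector held for 4.91% of all tested genes in OTUB2 libraries, for 5.53% in SNX29P2 libraries and for 2.44% in all 6 libraries at once. Means were 3.08 ± 0.447 RPKM in OTUB2 and 3.17 ± 0.385 RPKM in SNX29P2 cells, against 4.45 ± 0.603 RPKM in vector cells (SD, n = 3 each). Log2 fold changes were -0.52 ± 0.14 (SE) for OTUB2 and -0.47 ± 0.14 for SNX29P2, and limma with Benjamini-Hochberg adjustment gave adjusted p = 0.598 for OTUB2 and 0.502 for SNX29P2. Without OTUB2 replicate 1, the library with blood cell markers, the log2 fold change for OTUB2 was -0.56 (limma, Benjamini-Hochberg adjusted p = 0.962). Between libraries of the same number, BMP2 in OTUB2 libraries was 0.857, 0.549 and 0.699 times the vector level at numbers 1, 2 and 3, and 0.762, 0.650 and 0.736 times in SNX29P2 libraries. In bulk RNA, fewer cells expressing a gene and less RNA per cell cannot be told apart.

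FSTL3 encodes a secreted glycoprotein that binds activins and myostatin. It had 6.15, 9.17 and 6.46 RPKM in OTUB2 libraries, 6.11, 9.02 and 6.32 RPKM in SNX29P2 libraries, and 9.11, 15.9 and 9.57 RPKM in vector libraries. All SNX29P2 libraries lay below all vector libraries, as for 5.53% of all tested genes, whereas OTUB2 replicate 2 lay just above vector replicate 1. The means were 7.26 ± 1.66 RPKM in OTUB2 and 7.15 ± 1.62 RPKM in SNX29P2 cells, against 11.5 ± 3.79 RPKM in vector cells (SD, n = 3 each). Log2 fold changes were -0.64 ± 0.24 (SE) for OTUB2 and -0.66 ± 0.24 for SNX29P2, with limma and Benjamini-Hochberg adjusted p of 0.704 for OTUB2 and 0.551 for SNX29P2. The vector library numbered 2 weighed on these values, since without it the log2 fold changes were -0.38 for OTUB2 and -0.40 for SNX29P2. Leaving out OTUB2 replicate 1 instead gave -0.53 for OTUB2 (limma, Benjamini-Hochberg adjusted p = 0.962). Within each number the ratio to vector was similar, at 0.675, 0.577 and 0.674 for OTUB2 and at 0.670, 0.567 and 0.660 for SNX29P2 at numbers 1, 2 and 3. With the library number as a block, the adjusted p was 0.070 for OTUB2, 0.0499 for SNX29P2 and 0.0218 for both overexpression groups (limma, Benjamini-Hochberg). In that fit FSTL3 was thus called for SNX29P2 and for both groups together, and not for OTUB2. As a share of the FST level, FSTL3 came to 16.8, 23.9 and 17.9% in OTUB2 libraries, 18.3, 24.2 and 16.2% in SNX29P2 libraries and 28.6, 38.4 and 22.4% in vector libraries, so that the groups overlapped at the vector library numbered 3.

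**Figure D2:**
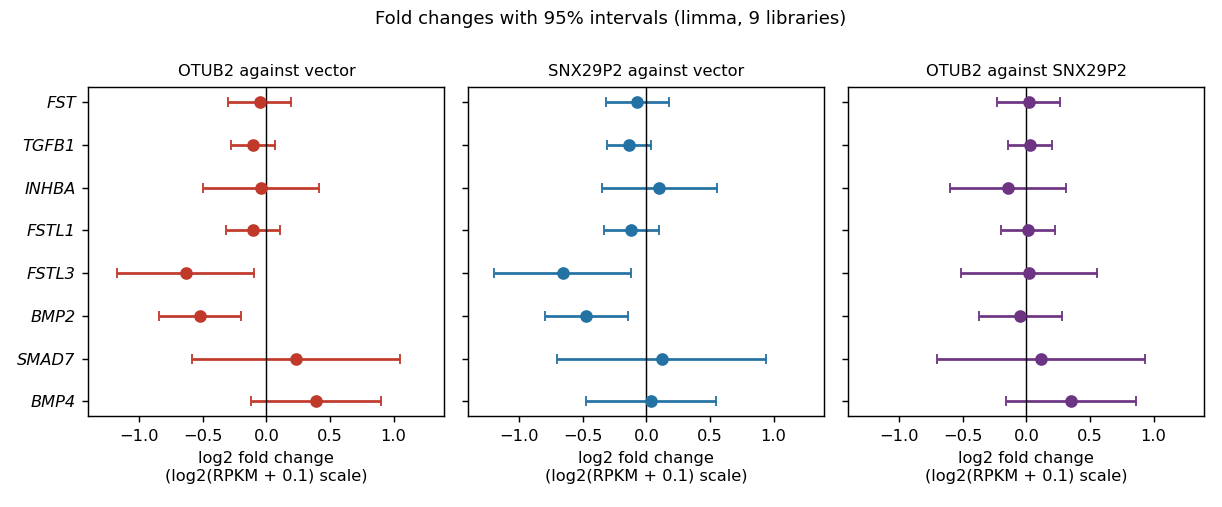
Log2 fold changes (x axis, on the log2(RPKM + 0.1) scale) of the 8 tested members, with 1 panel for each overexpression group against vector and 1 for OTUB2 against SNX29P2. Points are limma estimates and bars their 95% intervals before adjustment for multiple testing. The FSTL3 and BMP2 intervals lie below 0 in both comparisons with vector, and every interval of OTUB2 against SNX29P2 spans 0.

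Among the ligands, INHBA, whose product forms activin A, had 20.4, 27.7 and 18.4 RPKM in OTUB2 libraries, 20.4, 30.9 and 22.4 RPKM in SNX29P2 libraries, and 20.6, 28.5 and 19.4 RPKM in vector libraries. The groups overlapped throughout, and within each group the library numbered 2 was highest. Its log2 fold change was -0.045 for OTUB2 and 0.10 for SNX29P2, each with a 95% interval of ± 0.46 (limma, unadjusted). BMP4, a ligand close in sequence to BMP2, had 1.01, 1.15 and 0.780 RPKM in OTUB2 libraries, 0.637, 0.682 and 0.921 RPKM in SNX29P2 libraries, and 0.570, 0.868 and 0.738 RPKM in vector libraries. The groups overlapped, with OTUB2 replicates 1 and 2 above every vector library. Its log2 fold change was 0.39 ± 0.23 (SE) for OTUB2, 0.36 without OTUB2 replicate 1, and 0.039 ± 0.23 for SNX29P2, and OTUB2 against SNX29P2 gave 0.35 ± 0.23 (limma, Benjamini-Hochberg adjusted p = 1.0). TGFB1, the founding ligand of the family, had 28.14, 31.73 and 28.98 RPKM in OTUB2 libraries, 28.5, 30.4 and 27.9 RPKM in SNX29P2 libraries, and 34.3, 32.2 and 29.2 RPKM in vector libraries. Vector replicate 1 was the highest of the 9, and the groups overlapped. The log2 fold changes were -0.10 and -0.14 for OTUB2 and SNX29P2 against vector, with 95% intervals of ± 0.17. TGFB1 shares 1723 of its 3238 exon bases with HNRNPUL1 on the opposite strand, which was at 46.4 to 53.9 RPKM, and the handling of strand in the counting is not given in the sources used here, so reads of the 2 genes cannot be told apart there. FSTL1 shares 396 of its 8727 exon bases with RP11-174O3.3, which was at no more than 1.66 RPKM.

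The follistatin family genes other than FSTL3 differed less. FST had 36.6, 38.4 and 36.0 RPKM in OTUB2 libraries, 33.3, 37.3 and 39.1 RPKM in SNX29P2 libraries, and 31.9, 41.4 and 42.8 RPKM in vector libraries. The vector libraries held both the lowest and the highest value, so the groups overlapped. FSTL1, a secreted protein that shares a follistatin-like domain, had 10.9, 11.9 and 12.8 RPKM in OTUB2 libraries, 11.1, 11.0 and 13.1 RPKM in SNX29P2 libraries, and 13.8, 11.9 and 12.6 RPKM in vector libraries. Here, too, the groups overlapped. Log2 fold changes for OTUB2 and SNX29P2 against vector were -0.053 and -0.072 for FST, with 95% intervals of ± 0.25, and -0.11 and -0.12 for FSTL1, with 95% intervals of ± 0.22 (limma, unadjusted). Without OTUB2 replicate 1 the values for OTUB2 were 0.0032 for INHBA, -0.069 for TGFB1, -0.045 for FST and -0.047 for FSTL1, and 0 of the 8 members were called. The ratio of FST to INHBA transcripts per length, a comparison of the antagonist with the chain of its ligand, was 1.79, 1.39 and 1.95 in OTUB2 libraries, 1.63, 1.21 and 1.74 in SNX29P2 libraries, and 1.55, 1.45 and 2.20 in vector libraries. The library numbered 2 had the lowest ratio in each group, and the groups overlapped. Differences of mean log2 ratio from vector were -0.0083 for OTUB2 (two-sided exact permutation test, p = 1.0), -0.17 for SNX29P2 (p = 0.60, the same exact test) and -0.091 for the 6 overexpression libraries (exact p = 0.643). The smallest p this exact test allows is 0.10 with 3 libraries against 3 and 0.0119 with 6 against 3.

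SMAD7 varied more within groups than between them. It had 3.65, 3.24 and 1.74 RPKM in OTUB2 libraries, 3.39, 2.92 and 1.61 RPKM in SNX29P2 libraries, and 1.80, 3.64 and 1.89 RPKM in vector libraries. The OTUB2 and SNX29P2 libraries of the same number lay close together, and vector replicate 1 was low where the other libraries numbered 1 were high. Log2 fold changes were 0.24 ± 0.36 (SE) for OTUB2, 0.036 without OTUB2 replicate 1, and 0.12 ± 0.36 for SNX29P2. At number 1 the level was 2.03 times the vector level in OTUB2 and 1.89 times in SNX29P2, at number 2 it was 0.890 and 0.802 times, and at number 3 it was 0.920 and 0.855 times, so the direction differed between the numbers.

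Between the overexpression groups, the 8 log2 differences of OTUB2 minus SNX29P2 ran from -0.15 for INHBA to 0.35 for BMP4. The 95% intervals were narrowest for TGFB1, at 0.031 ± 0.17, and widest for SMAD7, at 0.12 ± 0.82. For BMP2 the difference was -0.048 ± 0.32 and for FSTL3 0.021 ± 0.54. With the library number as a block, which pairs these libraries, the 95% interval narrowed to ± 0.16 for FSTL3 and ± 0.27 for BMP2 (limma, unadjusted). For INHBA the blocked difference was -0.147 ± 0.145, with a limma p of 0.048 and a Benjamini-Hochberg adjusted p of 0.919. It was the 1 member with an unadjusted p under 0.05 there, as had 4.71% of all genes. Between libraries of the same number, FSTL3 in OTUB2 libraries was 1.01, 1.02 and 1.02 times the SNX29P2 level at numbers 1, 2 and 3. With OTUB2 replicate 1 left out and no block, the log2 differences were -0.099 for INHBA, 0.32 for BMP4, 0.067 for TGFB1 and -0.083 for SMAD7. They were -0.086 for BMP2, 0.13 for FSTL3, 0.027 for FST and 0.071 for FSTL1.

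The number in the library name was then tested as a term beside the group, with an F-test in limma that singles out no number. INHBA and FSTL3 were called, both at a Benjamini-Hochberg adjusted p of 0.0482 in limma, because the adjustment gave neighbouring ranks the same value. That is 2 of 8 tested members, where 0.284% of all genes were called. For INHBA the library numbered 2 was 1.42 times the mean of the other two in OTUB2 cells, 1.44 times in SNX29P2 cells and 1.42 times in vector cells. For FSTL3 the same ratio was 1.46 in OTUB2 cells, 1.45 in SNX29P2 cells and 1.70 in vector cells. A library numbered 2 that was the highest of its group in all 3 groups was seen for these 2 members and for 14.2% of all tested genes. SMAD7, for which the library numbered 3 was the lowest in OTUB2 and SNX29P2 cells, had a limma p of 0.0213 and a Benjamini-Hochberg adjusted p of 0.159. An unadjusted p under 0.05 in this F-test was seen for 3 of 8 members and for 22.7% of all genes. BMP2 had an adjusted p of 0.318 (limma, Benjamini-Hochberg). Both calls were lost when any library other than vector replicate 1 was left out. Without OTUB2 replicate 1 the adjusted p of each was 0.145 (limma, Benjamini-Hochberg), and without vector replicate 1 both were called and so was SMAD7, at an adjusted p of 0.0126. Across all genes, 1069 were called without vector replicate 1.

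**Figure D3:**
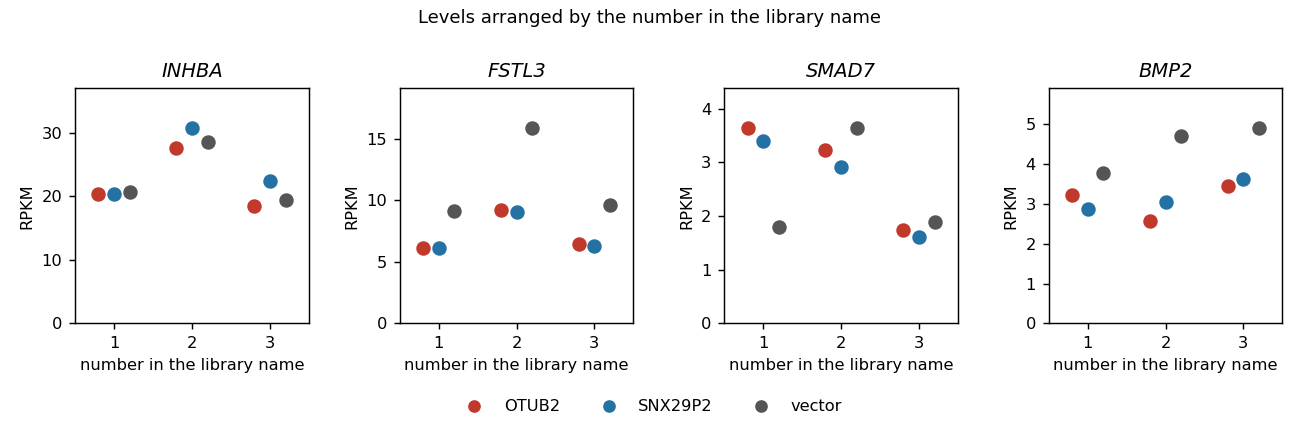
Levels of INHBA, FSTL3, SMAD7 and BMP2 in RPKM (y axis, from 0) arranged by the number in the library name (x axis), with OTUB2, SNX29P2 and vector libraries in colours. INHBA and FSTL3 are highest at number 2 in every group, and at each number the vector library has the highest FSTL3 and BMP2 level.

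By Pearson correlation of log2(RPKM + 0.1) over the 9 libraries, among 14096 genes averaging at least 1 RPKM, the genes most like FSTL3 were JUNB, a component of AP-1 (r = 0.984), COL6A1, a collagen VI chain (r = 0.982), and PHLDA2 (r = 0.978). JUNB, like FSTL3, was highest in the library numbered 2 of each group, at 14.9 RPKM in OTUB2, 14.6 RPKM in SNX29P2 and 20.6 RPKM in vector libraries. The closest to SMAD7 were PLPP3 (r = 0.977), GADD45B, a stress-induced gene (r = 0.972), and C7orf49 (r = 0.965). INHBA was followed most closely by RP4-621F18.2 (r = 0.984), ZNF207 (r = 0.973) and ETV3 (r = 0.971), and TGFB1 by PHLDB1 (r = 0.972) and CRAT (r = 0.955). For BMP2 the leading genes were PTTG1IP (r = 0.918), RPL7 (r = 0.903) and ST20-AS1 (r = 0.878), the lowest correlations for the closest genes of any member. FST was led by SAP30L (r = 0.958), AC000123.4 (r = 0.950) and CAB39L (r = 0.949), FSTL1 by KLHL7 (r = 0.949), CALCOCO2 (r = 0.939) and LRBA (r = 0.937), and BMP4 by LAMC1 (r = 0.948), SNORD33 (r = 0.939) and PPIAP29 (r = 0.923). Among the 28 pairs of members, the correlation was most negative for FSTL1 and SMAD7 (r = -0.87) and most positive for FSTL3 and TGFB1 (r = 0.70), with INHBA and FSTL3 at 0.59. These values describe 9 libraries that share group and number, and the closest genes were picked as the highest of many.

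The wider pathway was read from 10 lists, and 0 of their tested genes were called in any comparison (limma, Benjamini-Hochberg). The lists include the members, so their counts partly restate the values above. INHBA and TGFB1 are among the tested activin and TGF-beta family ligands, and BMP2 and BMP4 among the BMP family ligands. FST, FSTL1 and FSTL3 are on the list of extracellular antagonists, where FSTL1 was placed as a follistatin family gene, and SMAD7 is among the SMAD genes. Both comparisons with vector share the 3 vector libraries, and counts for the 2 groups are given side by side only. Among activin and TGF-beta family ligands, 5 of 12 genes in the table were tested, and 0 were higher and 5 lower than vector in OTUB2 cells, against 2 higher and 3 lower in SNX29P2 cells. The OTUB2 count was 1 higher and 4 lower without OTUB2 replicate 1. GDF11, a ligand close to myostatin, averaged 2.41 ± 0.102 RPKM in OTUB2 and 2.49 ± 0.0382 RPKM in SNX29P2 cells, against 3.02 ± 0.384 RPKM in vector cells (SD, n = 3 each). GDF15, a stress-induced cytokine, had log2 fold changes of -0.70 in OTUB2 and -0.65 in SNX29P2 cells (limma, Benjamini-Hochberg adjusted p = 0.839 and 0.753). For GDF15 the groups overlapped, at 0.336 to 1.26 RPKM in OTUB2, 0.487 to 1.09 RPKM in SNX29P2 and 0.823 to 1.75 RPKM in vector libraries. The OTUB2 log2 fold changes without replicate 1 were -0.32 for GDF11 and -0.85 for GDF15. Of the BMP family ligands, 5 of 13 were tested, with 3 higher and 2 lower in OTUB2 cells and 2 higher and 3 lower in SNX29P2 cells, and GDF9, an oocyte factor, was at 0.19 in OTUB2 cells, 0.099 without OTUB2 replicate 1, and 0.13 in SNX29P2 cells on the log2 scale. The BMP ligand count for OTUB2 was again 3 higher and 2 lower without that library. Of the extracellular antagonists, 7 of 14 were tested, with 2 higher and 5 lower in OTUB2 cells and 4 higher and 3 lower in SNX29P2 cells. Leaving out OTUB2 replicate 1 gave 1 higher and 6 lower in OTUB2 cells. CHRDL1, a BMP-binding chordin-like protein, was at 0.10 in OTUB2 cells, 0.14 without OTUB2 replicate 1, and 0.044 in SNX29P2 cells. NOG and CHRD, the noggin and chordin genes, were below the filter.

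Of the latency and processing genes, 8 of 10 were tested, with 1 higher and 7 lower in OTUB2 cells and 1 higher and 7 lower in SNX29P2 cells. Their median log2 fold change was -0.12 in OTUB2 and -0.26 in SNX29P2 cells, beside 0.0067 and 0.014 over all tested genes. LTBP2, a latent TGF-beta binding protein of the matrix, averaged 20.45 ± 2.39 RPKM in OTUB2 and 21.5 ± 1.64 RPKM in SNX29P2 cells, against 26.0 ± 2.04 RPKM in vector cells (SD, n = 3 each), and its log2 fold changes were -0.35 and -0.27. Without OTUB2 replicate 1 the count for OTUB2 was again 7 of 8 lower, with a median of -0.10 and LTBP2 at -0.25. LTBP4 was at -0.22 in OTUB2 cells, -0.24 without OTUB2 replicate 1, and -0.31 in SNX29P2 cells. Of the type I and type II receptors, 8 of 11 were tested, with 2 higher and 6 lower in OTUB2 cells and 5 higher and 3 lower in SNX29P2 cells, among them the BMP and activin receptor ACVR1 at -0.15 and -0.18 and TGFBR2 at -0.065 and -0.11. The receptor count for OTUB2 without replicate 1 was again 2 higher and 6 lower, with ACVR1 at -0.21 and TGFBR2 at -0.051.

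Among the co-receptors, 4 of 6 genes were tested, with 1 higher and 3 lower in OTUB2 cells and 0 higher and 4 lower in SNX29P2 cells. ENG, the endoglin gene, whose product binds BMP9 and TGF-beta with their receptors, had 139, 134 and 136 RPKM in OTUB2 libraries, 123, 111 and 117 RPKM in SNX29P2 libraries, and 116, 116 and 119 RPKM in vector libraries. The OTUB2 libraries lay above all others, with a log2 fold change of 0.22 for OTUB2 (limma, Benjamini-Hochberg adjusted p = 0.507) and -0.00068 for SNX29P2. The share of all genes with such a separation was not counted. RGMB, a BMP co-receptor, had 14.2, 14.6 and 15.5 RPKM in OTUB2 libraries, 15.5, 16.3 and 16.1 RPKM in SNX29P2 libraries, and 17.7, 20.8 and 18.4 RPKM in vector libraries. All 6 overexpression libraries lay below all vector libraries, with log2 fold changes of -0.36 for OTUB2 and -0.24 for SNX29P2 and limma, Benjamini-Hochberg adjusted p of 0.475 and 0.510. Separation of all 6 libraries below vector held for 2.44% of all tested genes. NEO1, a receptor of the RGM proteins, was at -0.14 and -0.12. The co-receptor count for OTUB2 without replicate 1 was again 1 higher and 3 lower, with ENG at 0.21, RGMB at -0.33 and NEO1 at -0.20.

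Downstream, 6 of 7 tested SMAD genes were higher and 1 lower than vector in each overexpression group. Their median log2 fold change was 0.0087 in OTUB2 and 0.065 in SNX29P2 cells, beside 0.0067 and 0.014 over all tested genes. In both comparisons 0 of them had an unadjusted limma p under 0.05. SMAD5 was at 0.0030 in OTUB2 and 0.20 in SNX29P2 cells, and SMAD9 at 0.31 and 0.27. In OTUB2 cells without replicate 1, 5 SMAD genes were higher and 2 lower, with SMAD5 at 0.10 and SMAD9 at 0.13. Of the intracellular regulators, 15 of 17 were tested, with 9 higher and 6 lower in OTUB2 cells and 10 higher and 5 lower in SNX29P2 cells. In OTUB2 and SNX29P2 cells the ubiquitin ligase SMURF2 was at -0.21 and -0.10, the SMAD corepressor TGIF2 at -0.19 and -0.012, and the deubiquitinases USP11 at -0.086 and -0.15 and UCHL5 at 0.013 and 0.19. The regulator count for OTUB2 without replicate 1 was again 9 higher and 6 lower, with SMURF2 at -0.12, TGIF2 at -0.11, USP11 at -0.11 and UCHL5 at 0.042. Known TGF-beta and activin target genes were lower than vector in 10 of 12 tested genes in OTUB2 cells and in 10 of 12 in SNX29P2 cells. Their median log2 fold changes were -0.19 and -0.14, beside 0.0067 and 0.014 over all tested genes. The share of all genes lower than vector was not counted. An unadjusted limma p under 0.05 was seen for 2 of the 12 in OTUB2 and 3 in SNX29P2 cells, all lower than vector (6.73% and 8.21% of all genes in either direction). FN1, the fibronectin gene, had 79.4, 102 and 98.9 RPKM in OTUB2 libraries, 76.4, 103 and 97.2 RPKM in SNX29P2 libraries, and 125, 135 and 111 RPKM in vector libraries. All 6 overexpression libraries were below the vector libraries, as for 2.44% of all tested genes. The log2 fold changes were -0.41 and -0.43 (limma, Benjamini-Hochberg adjusted p = 0.668 for OTUB2 and 0.502 for SNX29P2). Known BMP target genes were higher than vector in 6 of 7 tested genes in OTUB2 cells and in 5 of 7 in SNX29P2 cells. Their medians were 0.31 and 0.13, and the share of all genes higher than vector was not counted. An unadjusted limma p under 0.05 was seen for 2 of the 7 in OTUB2 cells (ID1 and ID3) and for 0 in SNX29P2 cells. The inhibitors of differentiation ID1 and ID3 had log2 fold changes of 0.35 and 0.53 in OTUB2 cells and of 0.13 and 0.30 in SNX29P2 cells. ID3 was at 41.1, 37.3 and 28.7 RPKM in OTUB2 libraries, 35.5, 32.0 and 23.8 RPKM in SNX29P2 libraries, and 18.4, 31.7 and 24.8 RPKM in vector libraries, and the groups overlapped. In SNX29P2 libraries ID3 was well above the same-numbered vector library at number 1 only. MSX1 had 3.74, 3.32 and 2.48 RPKM in OTUB2 and 1.70, 3.60 and 2.81 RPKM in vector libraries. Like SMAD7, it was higher in OTUB2 cells at number 1 only, where the vector library was lowest. ID1, ID3, SMAD9 and ATOH8 were higher in OTUB2 than in vector libraries at each number, and the share of all genes with that pattern was not counted. At number 3 the margin was small for ATOH8 (0.890 against 0.880 RPKM) and SMAD9 (0.928 against 0.875 RPKM). The BMP target HEY1 was lower than vector, at -0.29 in OTUB2 cells, -0.34 without OTUB2 replicate 1, and -0.28 in SNX29P2 cells. Without OTUB2 replicate 1 the counts for OTUB2 were 10 of 12 lower for the TGF-beta and activin targets and 6 of 7 higher for the BMP targets, with medians of -0.14 and 0.15, and the log2 difference was 0.36 for ID1, 0.42 for ID3 and -0.30 for FN1. SMAD7 counts in both target lists, and TGFB1 and LTBP2 are also on the list of TGF-beta and activin targets.

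**Figure D4:**
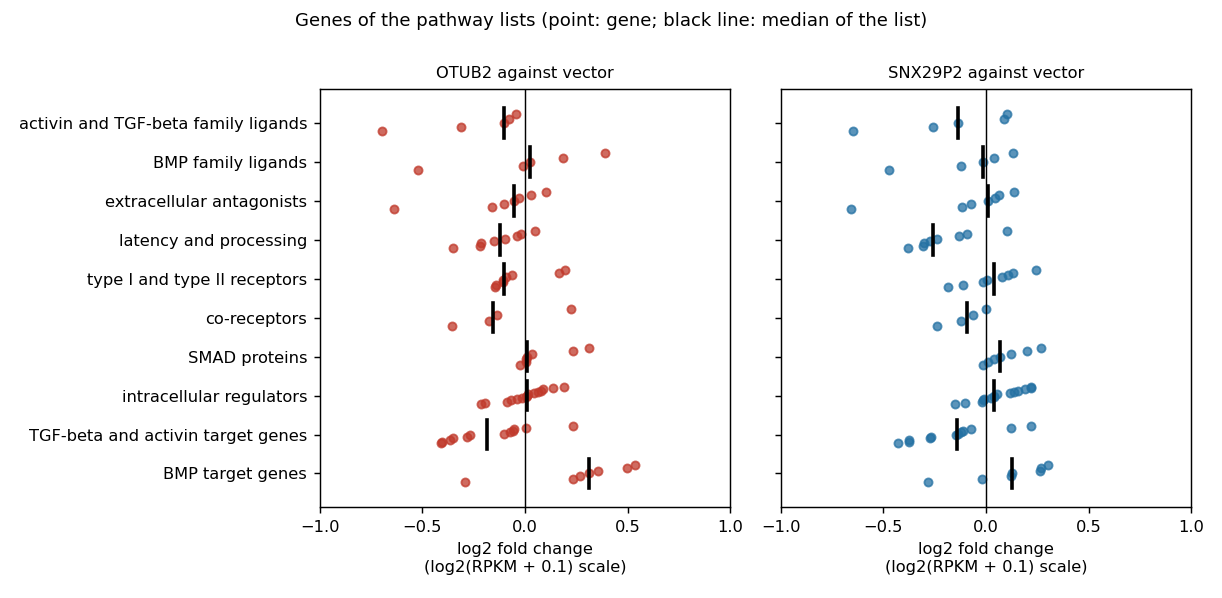
Log2 fold changes (x axis, on the log2(RPKM + 0.1) scale) of the tested genes of 10 pathway lists, with OTUB2 against vector on the left and SNX29P2 against vector on the right. Points are genes and black lines are list medians. The medians of the TGF-beta and activin targets are -0.19 and -0.14 and those of the BMP targets 0.31 and 0.13, with 0 genes called in any list. Over all tested genes the medians are 0.0067 and 0.014.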

How the data were processed

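Total RNA of 9 ES-2 libraries was extracted with TRIzol and sequenced after a standard Illumina preparation, per the labels' protocols. The authors deposited RPKM values for 32997 genes with exon positions and gene length in bases, per the file headers. The build was GRCh38 according to the submitters' processing notes. Which aligner, counting program and annotation release were used is not given in the sources used here. Positions of 8 of 9 members matched GENCODE release 29, and the deposited SMAD7 span ended at 48950711 against 48952052 there.

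Values below 1000 reads were whole multiples of 1 read within 0.05 reads in 100% of cases, so read numbers were recovered (38504854 to 48551215 per library). The 16533 genes that reached 0.5 RPKM in 3 or more libraries were fitted on log2(RPKM + 0.1) with limma 3.58.1 in R 4.3.3, with trended variance and group as the term over all 9 libraries. Calls were made at a Benjamini-Hochberg adjusted p under 0.05. An F-test of the library number used a model of group and number. The fit was tested on simulated data. The FST to INHBA ratio was tested by listing all permutations in python. The Poisson intervals of INHBB were computed with scipy 1.17.1, and plots were drawn with matplotlib 3.10.9. Tables were made in python 3.11.15 with numpy 2.4.6 and pandas 2.3.3.

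Members and lists were chosen with earlier results of these data known. Of 140 listed genes, 14 were not matched and are not analysed here, and 2 were matched by an older symbol. In each list, any gene called and the 2 with the smallest p in each comparison of an overexpression group with vector were named. ID3, ENG, RGMB and FN1 were given by library after their values were seen. NOG, CHRD, INHA, MSX1, ATOH8 and HEY1 were also added after their values were seen. The 3 most correlated genes were named for each tested member, except that 1 gene for TGFB1 is not reported here. Same-numbered OTUB2 and SNX29P2 libraries deviated together from their group means (r = 0.270, 0.259 and 0.153), and with the number as a block 0 members were called in that comparison.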

Additional observations from a re-analysis of the deposited data

How the results depend on the processing

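Alternatives were pseudocounts of 1 and 0.01 RPKM, quantile normalization, median-of-ratios scaling, a robust fit, no filter on low values, a stricter filter (1 RPKM in 6 libraries), the replicate number as a block, each library left out in turn and only the groups compared. Voom on recovered reads and the libraries without those numbered 2 were added after seeing the data. edgeR's quasi-likelihood test on recovered reads was not run. Of 628 values of member fold changes under alternatives, 592 kept direction and side of the threshold, 2 passed the threshold and 34 reversed, 32 of these with a library left out. With the replicate block FSTL3 was called for SNX29P2 (limma, Benjamini-Hochberg adjusted p = 0.0499) and for both overexpression groups (0.0218), 1 member each, and not for OTUB2 (0.070). Same-numbered libraries correlated at 0.051, 0.193 and 0.139 between OTUB2 and vector and at -0.018, 0.151 and 0.104 between SNX29P2 and vector, not all above 0.1. All libraries correlated best with their own number there except SNX29P2 replicate 1 and vector replicate 1 with each other. The block changed no other member's call.

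Genes called for OTUB2 against vector numbered 3, and 7 with no filter, 1 with only the groups compared and 1 without the libraries numbered 2. For SNX29P2 against vector they numbered 6, and 1 with the stricter filter, 10 with voom and 0 without the libraries numbered 2, where 684 had an unadjusted p under 0.05. For OTUB2 against SNX29P2 they numbered 4, and 1 with the stricter filter and 1 without the libraries numbered 2. For both overexpression groups they numbered 10, and 3 with the stricter filter, 22 with the replicate block and 1 without the libraries numbered 2. With 1 library left out the 4 counts ran from 1 to 7, 1 to 7, 1 to 5 and 3 to 10. The library number called 47 genes, 2 with no filter, 144 with the stricter filter and 907 with voom, and 0 to 1069 with 1 library left out. It called 2 members, 0 with no filter and 0 to 3 with 1 library left out. The cause of these shifts was not tested.

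Reversals at fold changes near 0 came without the libraries numbered 2 for OTUB2 against SNX29P2, at -0.033 for FSTL1 and 0.046 for BMP2. With 1 library left out, OTUB2 against vector ran from -0.21 to 0.12 for INHBA and from -0.19 to 0.025 for FST. SNX29P2 against vector ran from -0.072 to 0.27 for INHBA, -0.21 to 0.0063 for FST, -0.10 to 0.16 for BMP4 and -0.087 to 0.44 for SMAD7. Both overexpression groups ran from -0.077 to 0.20 for INHBA and -0.20 to 0.016 for FST. OTUB2 against SNX29P2 ran from -0.32 to 0.028 for INHBA, -0.047 to 0.069 for FST, -0.045 to 0.093 for FSTL1, -0.16 to 0.20 for FSTL3, -0.13 to 0.072 for BMP2, -0.19 to 0.43 for SMAD7 and -0.019 to 0.067 for TGFB1. The log2 FST to INHBA difference ran from -0.12 to 0.18 for OTUB2, -0.29 to 0.0098 for SNX29P2 and -0.21 to 0.093 for both. BMP2 and FSTL3 stayed lower than vector in both groups under all these alternatives. INHBB, with 0 to 4 reads a library, is limited by depth.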
